A study of Mus musculus with 6 samples.

Results

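The T-cell receptor loci hold the gene segments from which T cells assemble their antigen receptors, and here they were measured in B cells. The members are CpG positions read 10 times or more in every one of the 6 libraries, inside the Tcra and Tcrd locus (Tcrd lies inside Tcra, chr14:52427000-54225000), the Tcrb locus (chr6:40891000-41559000) and the Tcrg locus (chr13:19178000-19357000), all in GRCm38. They number 191 of 1463044 positions covered in all 6 libraries: 99 in Tcra/Tcrd, 67 in Tcrb and 25 in Tcrg. A position is a cytosine on a given strand, so a CpG read on both strands gives a pair of positions. The study compared germinal center B-cells from the spleen of C57BL/6 mice with the genotype TET2 Wild-Type (WT, 3 libraries) or TET2 Knock-Out (KO, 3 libraries), to see how loss of TET2 changes DNA methylation. The assay was enhanced reduced representation bisulfite sequencing (ERRBS), which sequences fragments cut at CCGG and reads unmethylated cytosines as thymines. The labels give no knockout allele, Cre, age, immunisation or sorting gate, and do not say whether the replicates came from separate mice, so a p-value here reflects only how far these libraries spread, part of which may be technical.

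T cells build their receptor genes by cutting and joining V, D and J segments, which the RAG recombinase reaches only where the locus is open, and each assembled exon is spliced to a constant (C) gene. B cells carry out the same reaction at the immunoglobulin loci and keep the T-cell receptor segments in their unrearranged, germline order. TET2 oxidises 5-methylcytosine to 5-hydroxymethylcytosine, a step toward demethylation, and bisulfite reads both of these bases as methylated.

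The 6 libraries held between 174375503 and 203863392 reads over their listed positions, with a mean coverage of 101 to 125 reads. A median position of the 191 had 90.8 reads. Methylation was also read at the start sites of cell type marker genes (within 1 kb, at least 3 covered positions). The 2 of 7 B-cell markers with data had WT means of 0.533% (Pax5) and 2.91% (Cd22). The 3 of 6 germinal centre markers with data had 0.0930% (Bcl6), 0.121% (S1pr2) and 12.5% (Fas). Of 11 T-cell markers, 3 had data, at 94.3% (Zap70), 69.9% (Lat) and 4.69% (Bcl11b), and none of the 4 myeloid markers had any. Low levels were thus not limited to markers of the labelled cell type, and these few markers cannot establish it.

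WT replicate 1 stood apart at Tcra/Tcrd. Of 214 positions there that the other 5 libraries listed, 115 (53.7%) were not listed in WT replicate 1, against 0 to 1.98% for each of the other libraries counted the same way. The gap was largest at the receptor locus but was not confined to it. The 2 Mb bin around the middle of the locus, which counts the locus's own positions, lacked 150 of 397 (37.8%) in this library. Other bins of chromosome 14 lacked up to 14.4%. On the rest of chromosome 14 the share was 2.66%. At the Tcrb and Tcrg loci WT replicate 1 lacked none of the positions that the other 5 listed. At the 99 positions it did list, its mean coverage was 91.9 reads, within the range of 79.9 to 93.9 of all 6 libraries. The locus mean of Tcra/Tcrd, its gap to the rest of the genome and the positions and tiles named for a low p are therefore also given without this library, and levels of segments and stretches by library.

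**Figure D1:**
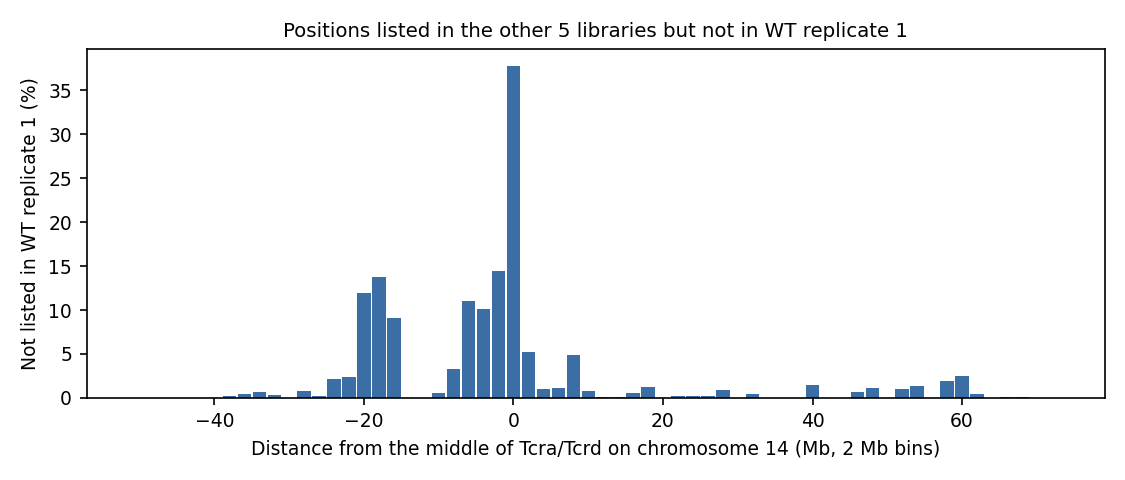
Share (%) of the CpG positions listed in the other 5 libraries that WT replicate 1 did not list, in 2 Mb bins along chromosome 14, by distance (Mb) from the middle of Tcra/Tcrd. The bin that holds the receptor locus reaches 37.8%, and the next highest bin 14.4%.

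Few of the covered positions lay in receptor segments themselves. Of 270 annotated V, D, J and C segments in the loci, 4 held a covered position: the J segment Traj41 (1 position), the V segment Trbv21 (4), and the J segments Trbj2-2 (1) and Trbj2-7 (4). None of the 8 constant genes did. A further 18 positions lay in other genes of the loci, namely the pseudogene Gm9537 (4), the long noncoding RNA gene Gm30275 (9) and 1700074P13Rik (5). The remaining positions lay outside annotated segments and these genes, and all 191 fell into 58 clusters whose members were at most 300 bp apart. Positions of a cluster can share reads and are not independent.

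Gene starts inside the loci held few CG and few sites of the enzyme. RefSeq (GRCm38.p6) gave promoter sequences for 17 genes in the loci, none of them a receptor segment. Over the 250 bases before the start, 10 of the 17 held no CG (7.87% of all 32851 promoters do), their median was 0 CG against 6, and 3 (17.6%) held CCGG on either strand, against 47.1% of all. No position covered in all 6 libraries lay in any of the 17. A pair of examples from Tcrb is printed 5′ to 3′ with each CG in capitals: 1700074P13Rik, which has the most CG of the 17, at chr6:40940558-40940807 on the minus strand, and Prss1, a trypsinogen gene, at chr6:41458680-41458929 on the plus strand.
1700074P13Rik: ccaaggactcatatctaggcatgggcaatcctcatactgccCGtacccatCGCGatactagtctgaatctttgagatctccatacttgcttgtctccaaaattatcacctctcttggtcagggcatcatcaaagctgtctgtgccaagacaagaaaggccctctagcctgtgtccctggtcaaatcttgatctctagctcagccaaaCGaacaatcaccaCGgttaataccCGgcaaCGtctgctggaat
Prss1: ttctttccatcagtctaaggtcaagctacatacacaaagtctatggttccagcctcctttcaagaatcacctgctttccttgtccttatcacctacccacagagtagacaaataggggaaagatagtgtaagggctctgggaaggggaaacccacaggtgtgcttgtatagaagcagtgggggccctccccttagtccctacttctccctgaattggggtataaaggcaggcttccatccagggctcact
The first holds 7 CG and 1 CCGG. It held a listed position only in WT replicate 2, at 39.1% of 23 reads. The second holds none of either and had no listed position.

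The T-cell receptor loci were highly methylated in these B cells. Averaged over positions, Tcra/Tcrd stood at 86.7%, 87.3% and 89.5% in WT replicates 1 to 3 (mean 87.8% ± 1.50, SD, n = 3). Tcrg stood at 86.5%, 89.8% and 85.6% (87.3% ± 2.22). Tcrb was lower, at 71.8%, 72.7% and 71.6% (72.1% ± 0.591). Tcrb lay below both other loci in each of the 6 libraries, whereas Tcra/Tcrd and Tcrg overlapped. All other covered CpG positions averaged 33.0% ± 0.413 in WT. Of those positions 61.1% were under 20% methylated, against 6 of the 191 (3.14%). The immunoglobulin loci, the nearest equivalents, stood at 82.3% (Igh, 219 positions), 87.4% (Igk, 419) and 92.7% (Igl, 43), with SDs of 1.4 points or less. Tcra/Tcrd and Tcrg were thus within the range of the immunoglobulin loci, and Tcrb was below all 3 of them.

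**Figure D2:**
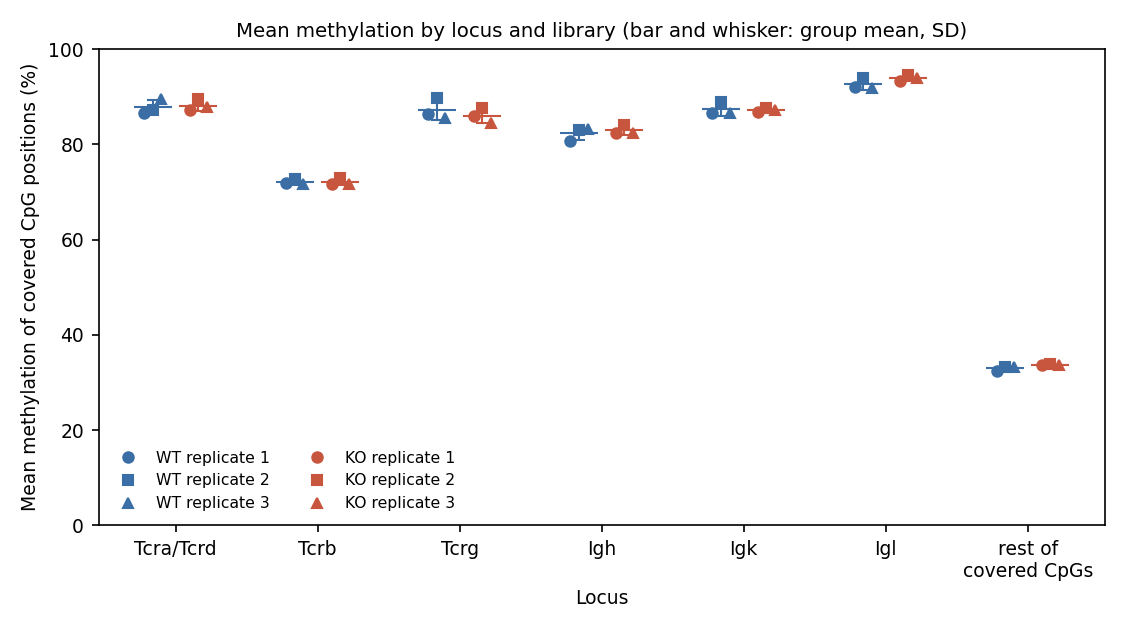
Mean methylation (%) of the covered CpG positions of each locus in every library (points, shaped by replicate number), with the group mean and SD (bar and whisker). WT and KO overlap at each of the 3 T-cell receptor loci, and Tcrb, near 72.1%, is the lowest of the 6 antigen receptor loci.

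Partly methylated positions took up a larger share of Tcrb. In Tcra/Tcrd 83 of 99 positions (83.8%) had a WT mean of 80% or more and none was under 20%, and in Tcrg 21 of 25 (84.0%) were at 80% or more. In Tcrb 36 of 67 (53.7%) were at 80% or more, 26 (38.8%) lay between 20% and 80%, and 5 were under 20%. The stretches below were cut at named segments after the positions had been seen, and their levels are a description.

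Within Tcra/Tcrd the WT means of the stretches lay between 83.9% and 93.7%, while single positions ranged from 47.6% to 100%. The stretch of V segments before the first D segment, Trdd1, held 75 positions at 88.7%, 87.0% and 90.4% in WT replicates 1 to 3. Its median position was at 90.6% and its lowest at 49.6%. The stretch of J segments from Traj61 to the constant gene Trac held 21 positions, at 79.0%, 86.7% and 86.0% in WT replicates 1 to 3. A median position of that stretch was at 91.4%, and the lowest, before Trac, at 47.6%. The single covered segment, Traj41, was at 82.8%, 84.9% and 66.7% in WT and 86.6%, 68.5% and 90.3% in KO, which overlap. Between Trdd1 and Trdv5, where the D, J and C segments of Tcrd lie, 3 positions in 1 cluster were covered, at 86.1% to 100% in WT.

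Tcrb was uneven. Its V stretch, up to Trbv30, held 23 positions with WT library means of 76.4%, 81.1% and 73.9% and KO means of 79.6%, 81.9% and 79.7%. The stretch from Trbv30 to Trbd1, which holds trypsinogen genes and no receptor segment, held 28 positions at 74.2%, 74.0% and 73.4% in WT, with a median position of 91.3%. In KO it stood at 70.4%, 74.4% and 71.5%. The stretch from Trbd1 to the constant gene Trbc2 held 16 positions, all at the second D and J group (Trbd2 with Trbj2-1 to Trbj2-7), at 61.0%, 58.4% and 65.3% in WT and 62.8%, 57.3% and 61.1% in KO. KO minus WT was 3.28, -1.80 and -1.18 points in the 3 stretches in this order, and the groups overlapped in each. In each of the 6 libraries this last stretch was the lowest of the 3. The V segment Trbv21, by contrast, was at 81.6%, 94.9% and 85.7% in WT and 93.4%, 90.7% and 89.7% in KO.

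**Figure D3:**
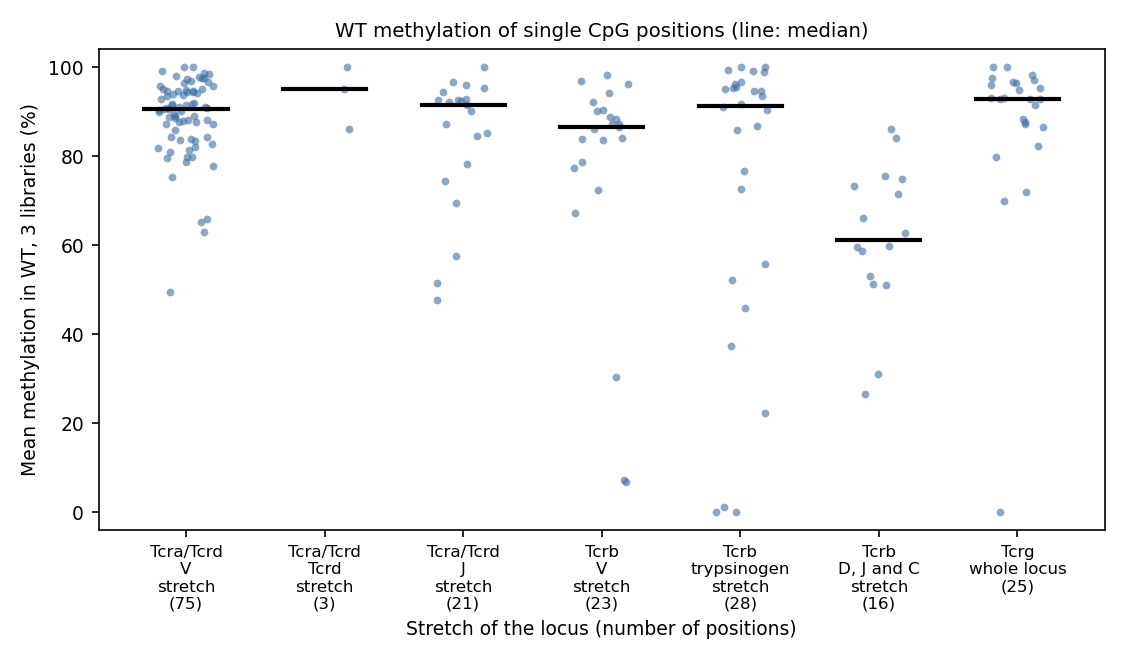
WT mean methylation (%, 3 libraries) of each of the 191 CpG positions, by stretch of the locus, with the median as a line. The D, J and C stretch of Tcrb has a median of 61.2% and no position above 86.2%, whereas the other stretches have medians of 86.5% to 95.1%.

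At the Trbj2 group methylation was intermediate at nearly every position rather than a mixture of fully methylated and unmethylated ones. Of its 16 positions, 2 had a WT mean of 80% or more and none was under 20%. The lowest were 62 bp before Trbj2-1 (chr6:41542692), at 15.3%, 49.5% and 15.2% in WT and 26.3%, 22.6% and 22.3% in KO, and 82 bp past Trbj2-7 (chr6:41543938), at 30.5%, 19.1% and 43.5% in WT and 32.1%, 21.7% and 31.0% in KO. The highest was the position inside Trbj2-2, at 78.9%, 95.2% and 84.4% in WT and 94.9%, 93.0% and 85.1% in KO. The 4 positions inside Trbj2-7 averaged 79.3%, 49.7% and 75.2% in WT and 65.3%, 56.4% and 70.3% in KO. WT replicate 2 was the lowest library there, and the groups overlapped. No equivalent comparison with immunoglobulin J segments could be made, since no covered position lay within 1 kb of a J segment of Igh, Igk or Igl.

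The 6 positions under 20% in WT lay in 5 clusters. In Tcrb, chr6:41091337, 598 bp from Trbv10, was at 4.74%, 16.7% and 0% in WT and 22.0%, 12.5% and 23.7% in KO. Its neighbour at 41091265 was low as well, at 45.0%, 24.3% and 21.7% in WT and 36.6%, 41.4% and 55.9% in KO. The position at chr6:41137018, 1402 bp from Trbv14, stayed between 0% and 13.9% in the 6 libraries, and the one at chr6:41360339 between 0% and 3.85%. In Tcrg, chr13:19265497 was at 0% in 5 libraries and 1.47% in KO replicate 1, amid a cluster of 11 positions that averaged 84.0% in WT. The remaining low positions of Tcrb belong to a pair of CpGs 48 bp apart before Trbd1, where the strands read oppositely. At chr6:41513080 the plus strand had 96.8% to 100% in WT and its partner at 41513081 had 0%. At chr6:41513128 the plus strand had 0% and its partner at 41513129 had 100%. The same held in KO, at 78.0% or more on the methylated strands and at most 12.2% on the others. Such CpGs, over 50 points apart between strands, were 2 of 18 read on both strands in the loci, against 2.03% of 256278 elsewhere.

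Loss of TET2 was not accompanied by a change in the mean level of any of the loci that exceeded the spread between libraries. Tcra/Tcrd in KO stood at 87.3%, 89.5% and 87.8% (88.2% ± 1.16), and KO minus WT was 0.337 points (SE 1.09, exact permutation test, two-sided, p = 0.8). Without WT replicate 1, at the 214 positions that the other 5 libraries covered, WT was 87.2% and KO 86.9%, a difference of -0.276 points. Tcrb in KO stood at 71.7%, 72.9% and 71.8% (72.2% ± 0.665), a difference of 0.0939 points (SE 0.514, exact permutation p = 0.7). Tcrg in KO stood at 86.0%, 87.6% and 84.6% (86.1% ± 1.51), a difference of -1.20 points (SE 1.55, exact permutation p = 0.6). Over all 191 positions the difference was 0.0499 points (SE 0.705, exact permutation p = 1). All 4 p-values were 1 after Benjamini-Hochberg adjustment, and with 3 libraries against 3 the smallest p this test allows is 0.1.

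The rest of the covered genome was 0.770 points higher in KO (33.0% ± 0.413 in WT and 33.8% ± 0.150 in KO), with every KO library above every WT library. The difference at the receptor loci was set against it by taking, in each library, the locus mean minus the mean of all other covered positions. KO minus WT of this gap was -0.434 points for Tcra/Tcrd (exact permutation p = 0.7; -0.790 without WT replicate 1), -0.677 for Tcrb (exact p = 0.2) and -1.97 for Tcrg (exact p = 0.2). Against the immunoglobulin loci, KO minus WT of the gap over all T-cell receptor positions was -0.150 points (exact p = 0.9). The adjusted p-values of these comparisons ranged from 0.5 to 0.9. No departure of the loci from the mean of the rest of the genome was thus detectable with these libraries. Of those other positions 61.1% were under 20% methylated in WT, whereas the loci were highly methylated. Apart from the immunoglobulin loci, the comparison therefore cannot tell whether the loci departed from positions of a similar level.

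**Figure D4:**
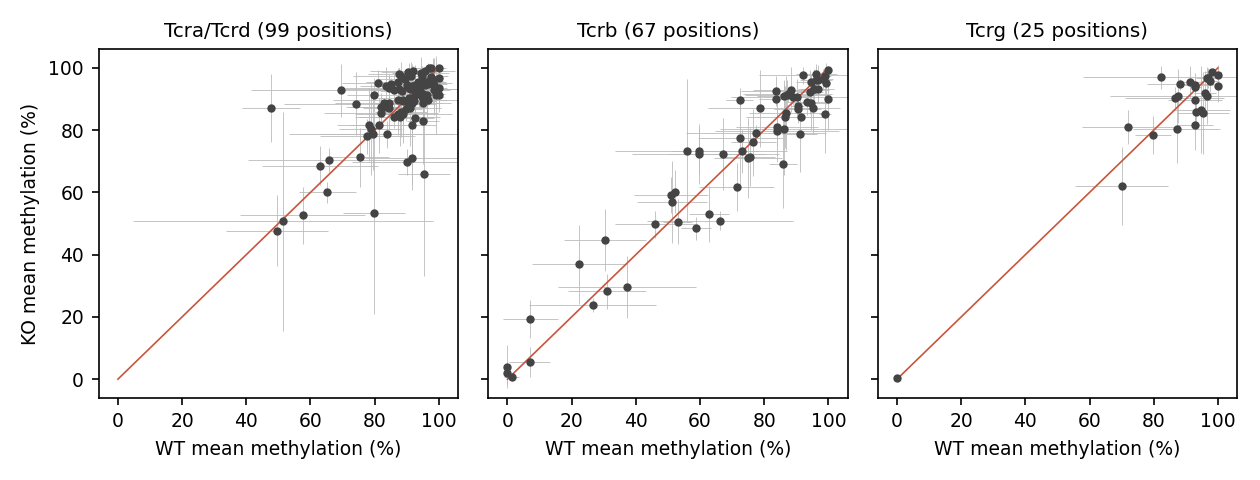
KO mean against WT mean methylation (%) of each CpG position of Tcra/Tcrd (99), Tcrb (67) and Tcrg (25), with the SD over 3 libraries as whiskers and the line of equality. Positions lie along the line over the whole range, and the largest departure upward, at 47.6% in WT and 87.3% in KO, is the position before Trac. The largest downward, at 95.3% in WT and 66.1% in KO, is a position near Traj48.

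Position by position, none of the loci's CpGs passed the test. The model was a quasi-binomial fit to methylated and unmethylated reads over all 525213 positions with a mean of 5% to 95%, with Benjamini-Hochberg adjustment over all of them, and a call needed an adjusted p under 0.05 and group means at least 10 points apart. Of the 151 positions tested in the loci, 0 were called, against 0.294% of all positions tested (0.284% higher and 0.0105% lower in KO). The unadjusted p was under 0.05 at 11 (7.29%, against 8.7% of all tested). The other models tried also called 0 in the loci, but they could hardly have called any. Over all 525213 positions, limma on log2 ratios and the model with the replicate number as a block called 0. With the dispersion unmoderated, 20 were called higher and 15 lower. Every KO library lay above every WT library at 7 of the 151 and below at 4, together 7.29%, against 8.3% above, 4% below and 12.3% together of all tested. The KO mean was the higher at 76 and the lower at 75 of the 151, where it was the higher at 58.9% of all positions tested. The median difference was 0.264 points, against 1.69 points over all positions tested. At 26 of the 151 the group means were 10 points or more apart, a count for which the share over all positions was not taken. The spread between libraries was close to that elsewhere, with a median SD per tested position of 9.07 points in WT and 6.16 in KO, against 8.33 and 5.84 over all.

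The lowest adjusted p of the loci belonged to a position between the J segments and the constant gene of Tcra. At chr14:54219840, 681 bp before Trac, methylation was 42.4%, 58.1% and 42.4% in WT, on 59, 43 and 59 reads, and 76.1%, 87.7% and 97.9% in KO, on 67, 57 and 97 reads. All KO libraries were above all WT libraries there, by 39.6 points in the means (adjusted p = 0.0838, quasi-binomial model with moderated dispersion). Its neighbour, chr14:54219824, was at 45.0%, 100% and 63.3% in WT and 83.1%, 96.5% and 99.0% in KO, which overlap (adjusted p = 0.317 in the same model). At the first position the adjusted p was 0.650 with the dispersion unmoderated, 0.700 with limma on log2 ratios, 0.570 with all covered positions tested, 0.579 with the replicate number as a block and 0.661 without KO replicate 3. Both were called when WT replicate 2, the highest WT library at both, was left out (adjusted p = 0.0290 and 0.0460 in the same model). That setting called more positions over the whole table too, 3002 higher and 118 lower of 524075 tested. With all 6 libraries the calls were 1490 higher and 55 lower of 525213. Without WT replicate 1 the differences were 37.0 and 11.2 points and neither was called. The positions at 54219650 and 54219659, 808 and 817 bp past Traj1, were not separated in this way. The latter ran from 0% in WT replicate 1 over 63.5% to 90.9% in WT, and was at 31.2%, 91.3% and 29.7% in KO. Added up over the 1 kb tile, the region read 40.7%, 72.6% and 77.0% in WT and 69.2%, 93.5% and 80.6% in KO, a difference of 17.7 points (adjusted p = 0.402) that fell to 6.28 points without WT replicate 1.

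**Figure D5:**
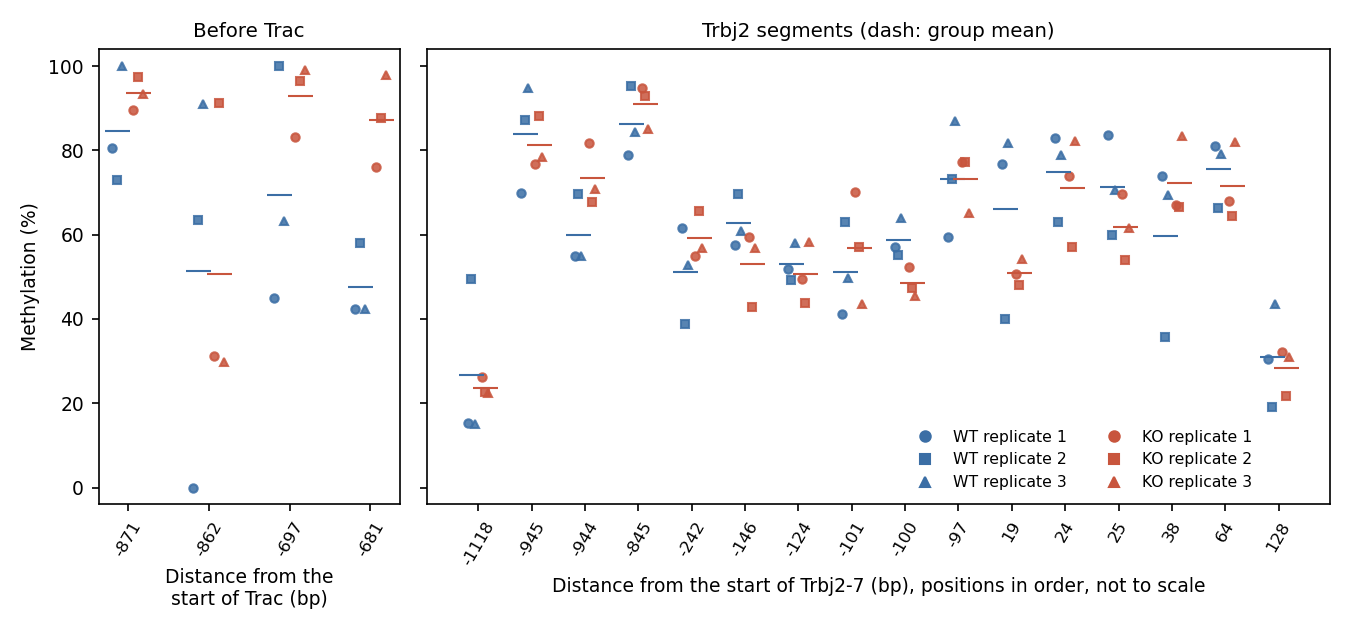
Methylation (%) in every library at the 4 covered CpG positions before Trac (left) and the 16 at the Trbj2 segments (right), in order and labelled by distance (bp) from the start of Trac and of Trbj2-7, with group means as dashes. The KO libraries lie above the WT libraries at the position 681 bp before Trac, and at the Trbj2 segments most group means lie between 40% and 80%.

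The largest differences downward, described here after their values were seen, were also in Tcra/Tcrd. A cluster of 2 positions near the J segment Traj48 averaged 85.2%, 100% and 93.0% in WT and 81.8%, 49.1% and 72.9% in KO, with every KO library below every WT library (difference -24.9 points). Its position at chr14:54169597 was at 100%, 100% and 86.0% in WT and from 28.6% (replicate 2, 21 reads) to 89.6% (replicate 1) in KO (adjusted p = 0.575), and its position at 54169647 was at 70.5%, 100% and 100% in WT and 73.9%, 69.6% and 65.7% in KO (adjusted p = 0.648). At both positions the groups overlapped. Further drops were -26.5 points at 53802977, near Trav17 (adjusted p = 0.720), and -20.6 points at 52648039, near Trav7-1 (adjusted p = 0.692). The first rested mostly on KO replicate 2. Its values were 84.5%, 68.6% and 86.0% in WT and 65.9%, 16.7% (30 reads) and 77.1% in KO. The second was at 74.6%, 100% and 100% in WT and 78.9% (19 reads), 74.5% and 59.5% in KO. Here too the groups overlapped at both.

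The other positions with the lowest p of each locus differed by less than the position before Trac. In Tcra/Tcrd, chr14:53995703, 5245 bp from the V segment Trdv3, was at 91.2%, 76.8% and 94.8% in WT and 96.6%, 100% and 97.8% in KO, with the KO libraries above the WT ones (10.5 points, adjusted p = 0.434; 12.3 points without WT replicate 1). In Tcrb, chr6:41425432, in the trypsinogen stretch, was at 89.9%, 86.7% and 81.2% in WT and 59.4%, 85.3% and 62.5% in KO (adjusted p = 0.426). Also there, chr6:41363787 was at 86.0%, 90.4% and 96.8% in WT and 90.5%, 66.3% and 79.6% in KO (adjusted p = 0.461). At both of these the groups overlapped through 1 KO library. The position at chr6:41527451, 5750 bp before Trbd1, was at 21.0%, 37.7% and 8.24% in WT and 43.2%, 22.3% and 45.3% in KO (adjusted p = 0.503). In Tcrg, chr13:19265688, 2291 bp from the constant gene Trgc3, was at 86.3%, 95.2% and 96.9% in WT and 83.7%, 72.8% and 88.5% in KO (adjusted p = 0.404). The others of Tcrg, at 19315051 near Trgj2 and 19265621 near Trgc3, had adjusted p of 0.801 and 0.820.

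Reads added over 1 kb tiles with at least 3 covered positions gave the same picture. The loci held 27 such tiles, of which 26 were tested and 0 were called, against 0.687% of all 83114 tiles tested (0.685% higher and 0.00241% lower in KO). The unadjusted p was under 0.05 at 2 (7.69%, against 11.5% of all tiles). Limma on log2 ratios called 0 tiles in the loci but also 0 of all 83114, so its 0 here adds nothing. In no tile did the groups fail to overlap, against 16.2% of all tiles (12.7% above and 3.54% below). After the Trac tile, the lowest p was that of the tile at chr6:41425001 in the trypsinogen stretch, whose 12 positions read 88.0%, 87.7% and 87.5% in WT and 81.8%, 87.6% and 82.5% in KO (adjusted p = 0.434). The tile at chr6:41543001, from the last bases of Trbj2-2 through Trbj2-7, read 65.0%, 55.0% and 67.3% in WT and 62.8%, 54.2% and 59.4% in KO (adjusted p = 0.676). Its neighbour at 41542001, with Trbd2, Trbj2-1 and the covered position of Trbj2-2, read 56.7%, 73.0% and 69.1% in WT and 70.0%, 68.0% and 62.8% in KO. The lowest tile of the loci in WT, at chr6:41513001 with the pair of strand-discordant CpGs, read 49.3% to 51.8% in WT and 43.8%, 50.8% and 47.5% in KO. In Tcra/Tcrd the tile at 54162001, over Traj54 and Traj53, read 89.5%, 91.1% and 83.6% in WT and 93.9%, 99.3% and 90.1% in KO, a difference of 6.39 points (7.11 without WT replicate 1). The tile at 52648001, near Trav7-1, read 84.0%, 96.5% and 100% in WT and 87.9%, 87.9% and 72.3% in KO. Its difference was -10.8 points (adjusted p = 0.638 in the quasi-binomial model), and -15.5 without WT replicate 1. In Tcrb the tile at 40929001 read 86.2%, 82.6% and 88.6% in WT and 93.3%, 92.5% and 87.9% in KO (5.45 points, adjusted p = 0.644 in the same model). All 3 tiles of Tcrg were between 85.3% and 98.3% in WT and between 83.1% and 96.6% in KO.

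Genes that make, carry or act beneath the T-cell receptor, together with Cd28, Tcf7, Bcl11b and Gata3, were looked at over their gene bodies. Of 20 listed, 17 had at least 5 covered positions and 16 were tested, with 0 called in either direction, against 0.0169% of all 11849 gene bodies tested. The unadjusted p was under 0.05 at 3 of the 16 (18.8%, against 11.8% of all gene bodies tested). The KO mean was the higher in 13 (81.2%, against 69.0%), with a median difference of 2.18 points against 1.09 over all gene bodies. Among the recombination genes, Rag1, a subunit of the recombinase, averaged 78.7% (SD 2.08) in the 3 WT and 82.9% (SD 1.85) in the 3 KO libraries. Of the receptor's CD3 subunits, Cd3g was at 77.5% ± 6.60 and 77.2% ± 1.71, and Cd247, the zeta chain, at 19.7% ± 1.32 and 22.1% ± 1.07. Of the kinases that act beneath the receptor, Lck was at 31.6% ± 1.57 in WT and 40.0% ± 1.07 in KO (adjusted p = 0.270 by the quasi-binomial model). Zap70 was at 81.3% ± 4.22 and 86.8% ± 0.881 (adjusted p = 0.3945 in the same model). The coreceptor genes Cd4 and Cd8a differed by 1.73 and -0.351 points, and Cd8b1 by 10.6 points (80.5% ± 3.54 and 91.1% ± 4.19, adjusted p = 0.3985 in the same model). Gata3, Bcl11b and Tcf7 differed by -1.58, 0.506 and 0.730 points.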

How the data were processed

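ERRBS was made from genomic DNA of 6 libraries, 3 WT and 3 KO. Reads were aligned with Bismark to GRCm38, per the submitters' processing notes; the sources used here do not give its version, the trimming or the conversion rate. The deposited files list, per the file headers, the coverage of each cytosine, a read count, with the percent read as C (methylated) and as T, per library, and no file lists a position with fewer than 10 reads. Strands are separate. Methylated and unmethylated reads were recovered from coverage and percent (100% of values whole within the rounding of the deposited decimals). PCR copies could not be told apart, so read counts overstate the number of molecules.

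Locus values are unweighted means of percent methylation over the members, compared by exact two-sided permutation tests over libraries. Positions and 1 kb tiles with a mean of 5% to 95% were fitted over the whole table by a quasi-binomial model whose dispersion was moderated with a port of limma's (3.58.1) variance shrinkage, after checks on simulated data, in Python 3.11.15 with numpy 2.4.6 and scipy 1.17.1. The simulated reads had the same extra spread setting at every feature, so those checks do not cover the uneven spread of these libraries. Named were the 3 positions and 3 tiles with the lowest p and the 3 tiles with the lowest WT level in each locus, the covered segments, and the positions under 20%. The members, lists and stretches were chosen with earlier results of these data known. Segments and promoters came from RefSeq (GRCm38.p6).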

Additional observations from a re-analysis of the deposited data

How the results depend on the processing

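All differences of locus means were small, and 3 or more of the 13 alternatives turned the sign of 3 of the 4, with the exact permutation p at 0.25 or more in each. Leaving out each library in turn gave -0.315 to 1.18 points for Tcra/Tcrd, -0.290 to 0.432 for Tcrb, -2.05 to 0.0523 for Tcrg and -0.523 to 0.362 for all loci. Over positions covered in the 5 libraries other than WT replicate 1 (chosen after seeing the data), the difference was -0.276 points for Tcra/Tcrd, -0.0325 for Tcrb and -0.333 for all loci. With each cluster counted once (also chosen after seeing the data), Tcrg gave 2.07 points, Tcrb 1.01 and all loci 0.579. Methylated reads over all reads gave 0.933 for Tcrb. Over all loci, methylated reads over all reads gave -0.292 points and the strands added together -0.0680. The gap to the rest of the genome ranged, leaving out each library, from -1.01 to 0.281 points for Tcra/Tcrd, and the gap to the immunoglobulin loci from -0.637 to 0.229; the latter was 0.00565 at a coverage minimum of 20 reads. Why these signs turned was not tested.

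The count of called positions, 0, became 2 without WT replicate 2 (range 0 to 2), and both were the pair before Trac. Over the whole table that setting called 3002 positions higher and 118 lower, against 1490 and 55 with all libraries. Tiles stayed at 0 in every alternative, but limma on log2 ratios and the unmoderated dispersion called 0 tiles over the whole table as well. Among uncalled tiles the sign turned without 1 library at 53802001 (range -2.69 to 4.65 points), 52517001 (-4.70 to 1.09), 41542001 (-4.13 to 4.03) and 19228001 (-3.45 to 1.83). For same-numbered WT and KO libraries the labels give no link but the number. Their deviations from the group means correlated at 0.007, 0.000 and -0.002, and not every library correlated best with its own number. Libraries of unlike number correlated at -0.008 to 0.008, so these values cannot decide whether the libraries were paired. The replicate number as a block left the value of each difference as it was. It called 0 positions of the loci, and also 0 over the whole table. Of the tiles of the loci it called 0, where over all tiles it called 900 higher and 6 lower. Its smallest possible p for a locus mean is 0.25, and it gave 0.75 for Tcra/Tcrd (0.337 points).

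Precision is set by 3 libraries a group and a median of 90.8 reads a position, with a median SD of 9.07 points per tested position in WT.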
